A study of Mus musculus with 8 samples.

Results

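The cytosolic ribosomal protein genes encode the proteins of the 80S ribosome outside mitochondria. They were taken by symbol: Rpl or Rps followed by a number, with a, l or x allowed at the end, together with Rplp0, Rplp1, Rplp2, Rpsa and Fau, and without pseudogenes marked -ps and the S6 kinases. The rule found 82 of the 22056 genes in the files, 32 of the small 40S subunit and 50 of the large 60S subunit. Of these, 79 had enough counts to be tested among 13931 genes. The other 3, Rpl3l, Rpl10l and Rpl39l, were close to 0 in every library. Rps3a1 and Rack1, which also belong to the ribosome, have symbols outside the rule and are given separately.

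The levels came from N2N1G cells, a mouse line of small cell lung cancer, grown as allografts in mice with 1000000 cells given per graft and taken after 3 weeks. There were 2 brain and 3 subcutaneous allografts, both kinds placed by direct injection, and 3 liver allografts that had been seeded through the tail vein. All grafts came from this 1 line, whose cells carry eGFP, so that clone-specific behaviour cannot be told apart from that of the tumour type, and route and site cannot be told apart in liver. The host strain is not given in the sources used here. Healthy cells had been sorted, and 3' RNA libraries were made in droplets. This method counts unique molecular identifiers (UMIs), 1 for each captured RNA molecule, near the 3' end.

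Tumour cells were the cells in which eGFP and Mycl together made up at least 0.2% of the UMIs, among cells with at least 500 genes and at most 10% mitochondrial UMIs. These were 34719 of 36797 kept cells, 2418 to 6276 in a library, with 21689091 to 62047017 UMIs. The median depth per tumour cell was 7972 to 10542 UMIs and the median mitochondrial share 2.22% to 2.93%. All 11 neuroendocrine and tumour markers, among them Chga, Insm1 and Syp, reached 10 CPM (UMIs per 1000000 UMIs of the library) in each of the 8 libraries. The 11 include eGFP and Mycl, which the rule itself selected for, so these 2 had to reach it. Between 20 and 56 cell barcodes were shared by any 2 libraries.

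The libraries of a site did not stand together. Liver replicate 3 lay apart from the other 2 liver libraries, and subcutaneous replicate 1 from the other 2 subcutaneous libraries. The counts of members called are therefore also given with single libraries left out. The gene lists, the ribosomal genes with other symbols and the length correlations are given over all 8 libraries only. Host RNA in the tumour cells was uneven too. The 10 macrophage markers summed to 467.5 CPM in brain replicate 1 and 68.9 in brain replicate 2, against 5.96 to 14.4 in liver and 2.06 to 43.4 in subcutaneous grafts. The 5 oligodendrocyte markers summed to 215.9 and 149.9 CPM in brain and to between 37.2 and 48.2 elsewhere, and the 5 erythroid markers to 852.4 CPM in liver replicate 2. T or NK cell markers were at or near 0 in every library.

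A ribosome holds 1 copy of nearly every ribosomal protein, so cells make these proteins in matched amounts, and their genes are among the most strongly expressed of any growing cell. Control lies largely in translation: the mRNAs begin with a run of pyrimidines, the 5' terminal oligopyrimidine (TOP) tract, through which mTOR signalling and the RNA-binding protein Larp1 set how much of the mRNA is translated and how much is stored. Ribosome production follows Myc, mTOR and growth rate, and unassembled Rpl5 and Rpl11 bind Mdm2 and so raise p53. In small cell lung cancer the Myc family, Mycl in this line, is among the known drivers of ribosome production.

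The start of the mRNA is shown for 6 members because the TOP tract is the element these mRNAs are known for. They are the 3 with the lowest and the 3 with the highest log2 fold change of brain against liver among the members that hold such a run near the start. Each line gives 30 bases of the sense strand, from 10 bases before to 20 bases from the annotated RefSeq start on GRCm38.p6, and the capitals mark the run from its first C in the searched bases. It was searched as a C followed by at least 4 bases that are each C or T, beginning within 5 bases of that start. The stretches lie at chr2:26910797-26910826 (+) for Rpl7a, chr17:24720053-24720082 (+) for Rps2, chr2:32961702-32961731 (+) for Rpl12, chr11:114668570-114668599 (+) for Rpl38, chr2:39005112-39005141 (-) for Rpl35 and chr3:90213629-90213658 (-) for Rps27.
Rpl7a: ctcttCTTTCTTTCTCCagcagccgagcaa
Rps2: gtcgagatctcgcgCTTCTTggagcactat
Rpl12: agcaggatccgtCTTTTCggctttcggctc
Rpl38: aagcctcgttCTTTCCCCgttctcttcggt
Rpl35: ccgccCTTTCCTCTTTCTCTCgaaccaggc
Rps27: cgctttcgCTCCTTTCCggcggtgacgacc

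A RefSeq promoter was at hand for 62 members. The annotated start was itself a C followed by at least 4 such bases in 14 of them (22.6%), in most as part of a longer run that begins further upstream, against 2.96% of the 26963 other promoters in that table. Within 5 bases of the start it was found in 29 members (46.8%), against 21.1% of the other promoters. The GABP-type letters CCGGAAG, on either strand of the 300 bases around the start, were held by 40.3% of members and 9.86% of others, and the YY1-type letters AAGATGGC by 9.68% and 3.17%. GGGCGG was held by 61.3% and 38.1%, and TATAAA by 9.68% and 15.7%. These matches describe letters in a window and not bound sites. In brain against liver the median log2 fold change was -0.29 over 29 tested members with a run and -0.34 over 30 with a promoter but no run.

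Together the members took up 21.1% to 27.8% of all tumour cell UMIs. Brain tumours had shares of 23.4% and 22.7%. Liver tumours had 27.8%, 26.4% and 23.1%, and subcutaneous tumours 23.7%, 21.2% and 21.1%. Liver replicates 1 and 2 were the highest of the 8, while liver replicate 3 lay inside the range of the brain libraries and below subcutaneous replicate 1. Of the 79 tested members, 64 had their highest level in liver replicate 1, and 28 their lowest level in subcutaneous replicate 3. By site the mean was 23.1% ± 0.511 in brain (SD, n = 2), 25.8% ± 2.43 in liver (SD, n = 3) and 22.04% ± 1.47 in subcutaneous grafts (SD, n = 3). The difference of brain minus liver was -2.71 percentage points. It was -4.05 when liver replicate 3 was left out and -1.69 when liver replicate 1 was. Liver minus subcutaneous was 3.73 points, and brain minus subcutaneous 1.03, which is less than the SD of the subcutaneous group and ranged from 0.58 to 1.88 as single libraries were left out. These sums were not tested, because the members were chosen with results of these data known.

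**Figure D1:**
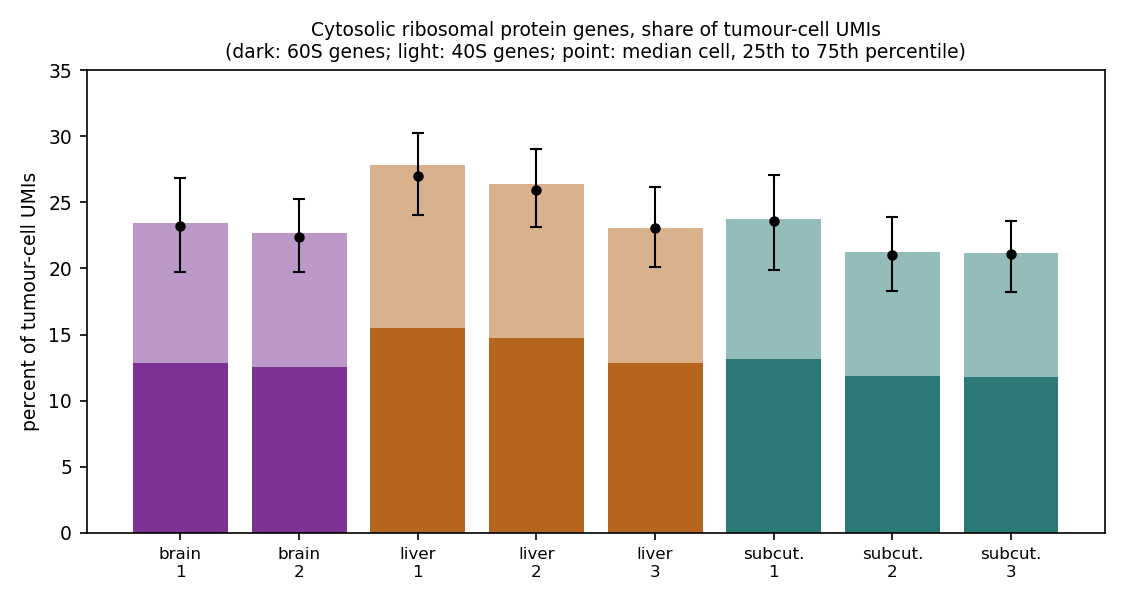
Percent of tumour cell UMIs in the cytosolic ribosomal protein genes for each library (bars from 0; dark, 60S genes; light, 40S genes), with the median cell and its 25th to 75th percentile as a point with bars. Liver replicates 1 and 2 are highest, at 27.8% and 26.4%, and liver replicate 3 stands at the height of the brain libraries.

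The balance of the subunits was nearly constant. The 40S genes held 45.0% ± 0.148 of the member UMIs in brain (SD, n = 2), 44.3% ± 0.102 in liver and 44.3% ± 0.169 in subcutaneous grafts (SD, n = 3 each). The brain values lay above all others, by less than 1 percentage point. Medians over cells followed the sums. The median tumour cell devoted 23.2% and 22.4% of its UMIs to the members in brain, 27.0%, 25.9% and 23.0% in liver, and 23.6%, 21.02% and 21.1% in subcutaneous grafts. Among cells of 8000 to 12000 UMIs the medians were 22.2% and 22.1% in brain, 26.2%, 25.8% and 22.8% in liver, and 23.4%, 21.2% and 21.4% in subcutaneous grafts. The order of the libraries was close to that over all cells in this class but not among the shallowest cells. Up to 5000 UMIs, brain replicates had 26.9% and 22.7%, liver replicates 26.21%, 26.1% and 26.5%, and subcutaneous replicates 25.9%, 21.6% and 17.3%, with brain replicate 1 the highest of the 8.

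Cells with more G2/M phase RNA carried a slightly lower share. A tumour cell counted as cycling when, thinned to 3000 UMIs, it held at least 4 UMIs over 20 genes of the G2/M phase, and cells under 3000 UMIs were left out. Cycling cells had a lower median share than non-cycling cells in each of the 8 libraries, for example 25.8% against 27.8% in liver replicate 1 and 19.7% against 21.7% in subcutaneous replicate 2. Brain replicate 1 had the narrowest gap, at 22.8% against 23.3%. The high liver libraries stayed high in both classes, with 25.8% and 25.1% in cycling and 27.8% and 26.6% in non-cycling cells of liver replicates 1 and 2.

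Among the most abundant members were Rpl41, Rplp0, Rps19 and Rps6. Levels are given in CPM, counted once per molecule and not scaled by length. The log2 fold changes below also use scaling factors between libraries, so they can differ from ratios of CPM. Rpl41, the shortest member with a coding length of 75 bases, averaged 6238 CPM over the 8 libraries. Rplp0, the base of the stalk that recruits translation factors, followed at 5927 CPM, then Rps19, mutated in Diamond-Blackfan anaemia, at 5344 CPM and Rps6, the phosphorylated target of the S6 kinases, at 5193 CPM.

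At the other end Rpl36al stood at 456.6 CPM, Rps27l at 770.0, Rpl27 at 917, Rpl13a at 1077 and Rpl22 at 1241 CPM. The order hardly changed between grafts: Spearman's correlation of the 79 levels was 0.87 to 1.00 over the 28 pairs of libraries, a description of libraries that share 1 cell line and 1 set of genes. A member's highest library exceeded its lowest by a median factor of 1.39, from 1.23 for Rps27l to 2.13 for Rps28. Several members have near-identical processed copies elsewhere in the genome, and counting that leaves out ambiguous reads lowers such genes, so a level is less certain than a difference between libraries.

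Paralogs with tissue-restricted roles were close to 0 in these tumours. Rpl3l, the striated muscle counterpart of Rpl3, reached 0.231 CPM in brain replicate 1 and at most 0.0627 CPM elsewhere. Rpl3 itself stood at 2828 to 4051 CPM. Rpl10l and Rpl39l, retained for male germ cells, did not exceed 0.0836 and 0.0922 CPM in any library, against 3235 to 4204 CPM for Rpl10 and 2229 to 3186 CPM for Rpl39. Rps27l, a p53-inducible copy of Rps27, and Rpl36al, the copy of Rpl36a, were expressed below their partners: Rps27l had 698 to 860 CPM and Rps27 1745 to 3154 CPM, and Rpl36al had 376 to 552 CPM and Rpl36a 1266 to 1821 CPM. Rps4l was not analysed here.

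Brain tumours had lower levels of many members than liver tumours. edgeR's quasi-likelihood test, with p-values adjusted over all 13931 genes, called 26 of 79 members lower in brain and 0 higher at an adjusted p under 0.05. Of all genes, 8.56% were called lower in brain and 13.2% higher. At an unadjusted p under 0.05, 46 members were lower and 0 higher, beside 16% of all genes lower. DESeq2 called 39 lower and 0 higher, beside 10.8% of all genes lower. The median member had a log2 fold change of -0.31 (a ratio of 0.807), against 0.00 for all genes, and 74 of the 79 values were negative. The members called were 7 of 32 in the 40S and 19 of 47 in the 60S subunit.

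The count depended on single libraries. Without liver replicate 3, 49 members were called lower beside 8.08% of all genes. Without liver replicate 1 or 2 the counts were 10 and 8, beside 4.62% and 4.27% of all genes. With 1 brain library left, whose spread was then assumed to be that of the other sites, 1 member was called without brain replicate 1 and 3 without brain replicate 2, beside 2.08% and 1.89% of all genes. With library totals alone as scaling, the median of all genes moved up by 0.12 and the count became 17, beside 5.14% of all genes. In cells with no macrophage or microglia marker UMI it was 16, beside 7.45% of all genes. That setting kept 432 of 2418 tumour cells in brain replicate 1 and 2237 of 4060 in brain replicate 2. Loss of host RNA and loss of cells cannot be told apart in it. None of the 24 alternatives run called a member higher in brain. Across libraries, both brain libraries lay below all 3 liver libraries for 39 members, an order met by 17.1% of all genes.

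The 6 members with the largest called decreases were Rpl22, Rpl7a, Rps2, Rps12, Rpl12 and Rpl15. Rpl22 (chromosome 4, 152325742 to 152334071, plus strand, on mm10 as all positions of genes here) encodes an RNA-binding protein on the outer face of the large subunit. It stood at 976 and 1021 CPM in brain, 1490, 1473 and 1239 in liver and 1332, 1207 and 1193 in subcutaneous grafts. Both brain libraries were below the 6 others. It fell by 0.61 ± 0.12 on the log2 scale (SE) in brain against liver, with an adjusted p of 0.00875 in edgeR. The call ended without brain replicate 1, at a log2 fold change of -0.55.

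Rpl7a (chromosome 2, 26910764 to 26913318, plus strand), a large-subunit protein whose C or T run near the start is printed above, had 1186 and 1179 CPM in brain. Liver libraries held 1790, 1669 and 1510 CPM and subcutaneous libraries 1435, 1542 and 1502 CPM. Again the brain libraries were the lowest of all 8. The log2 fold change of brain against liver was -0.60 ± 0.11 (SE, edgeR adjusted p = 0.00596), and Rpl7a was the member still called with either brain library left out.

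Rps2 (chromosome 17, 24718116 to 24721929, plus strand) lies where mRNA enters the small subunit. It had 3274 and 3428 CPM in brain, 5214, 4678 and 3983 in liver and 4059, 3834 and 3928 in subcutaneous grafts, so brain was below the 6 other libraries. The log2 fold change of brain against liver was -0.58 ± 0.13 (SE, edgeR adjusted p = 0.0138), and it was no longer called without brain replicate 1 or 2, at -0.53 and -0.61.

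Rps12, Rpl12 and Rpl15 had the same order against liver but not against subcutaneous grafts. Rps12, a protein of the small subunit beak, held 1852 and 1809 CPM in brain and 2843, 2520 and 2024 in liver. Rpl12, at the base of the stalk, held 1463 and 1344 CPM in brain and 2167, 1893 and 1574 in liver. Rpl15, a core protein of the large subunit, held 2586 and 2571 CPM in brain and 3717, 3435 and 3130 in liver. For all 3, liver replicate 3 was the liver library nearest to brain. Their log2 fold changes were -0.55 ± 0.16, -0.54 ± 0.14 and -0.53 ± 0.14 (SE), with edgeR adjusted p of 0.0354, 0.0268 and 0.031. None of the 3 calls held without liver replicate 1 or 2 or without either brain library, where the values were -0.42 to -0.54 for Rps12, -0.42 to -0.58 for Rpl12 and -0.46 to -0.54 for Rpl15, and those of Rps12 and Rpl15 ended with library totals alone, that of Rpl15 also in cells with no macrophage or microglia UMI.

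**Figure D2:**
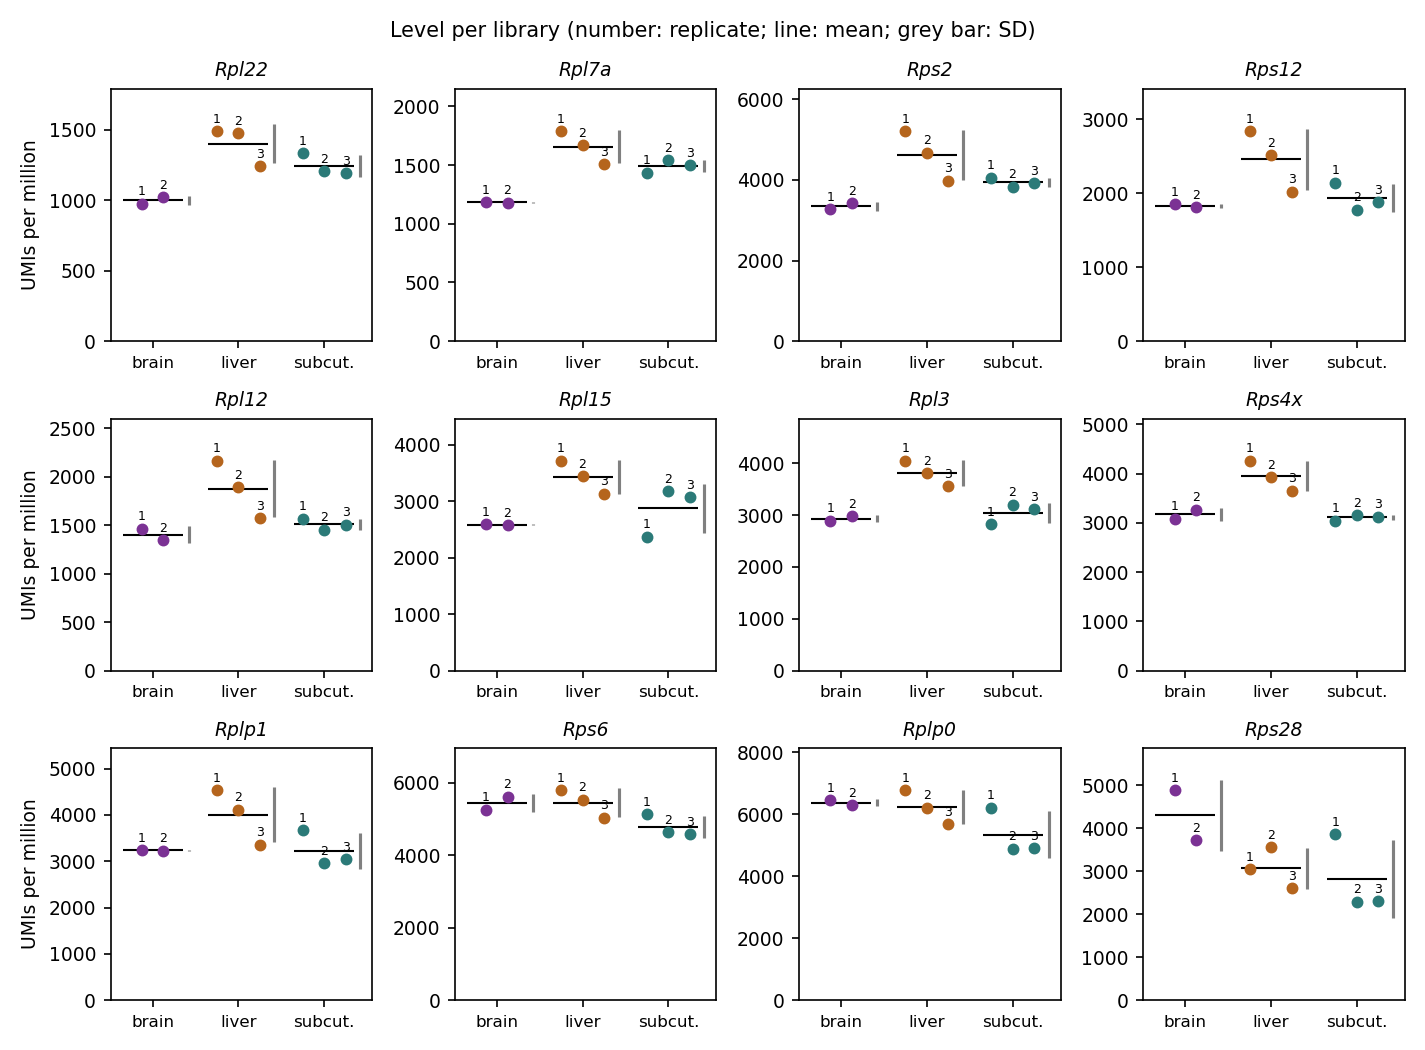
CPM (axes from 0) of 12 members in each library, with the mean as a line, the SD as a grey bar and the replicate number at each point. In the upper row the 2 brain libraries lie below every liver library, while Rps28, at the lower right, is highest in brain replicate 1 with 4892 CPM.

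Among members with known side roles the picture was mixed. Rpsa, also known as the laminin receptor, had 2893 and 3015 CPM in brain and 3907, 3699 and 3367 in liver, and was called lower in brain (log2 fold change -0.42 ± 0.10 SE, edgeR adjusted p = 0.0207). Rpl5, which carries 5S rRNA into the ribosome, was also lower, with 1077 and 1157 CPM in brain and 1492, 1431 and 1293 in liver (-0.45 ± 0.10 SE, adjusted p = 0.0156). Its partner Rpl11 was not called: it had 4182 and 4483 CPM in brain and 4513, 4261 and 3829 in liver, with overlapping groups and a value of -0.07 ± 0.11 SE whose sign turned under 4 alternatives. The calls of Rpsa and Rpl5 ended with either brain library left out and without liver replicate 2, and that of Rpsa also without liver replicate 1. The values there were -0.37 to -0.45 for Rpsa and -0.37 to -0.50 for Rpl5.

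The stalk proteins differed in their values. Rplp0 held 6450 and 6285 CPM in brain and 6781, 6213 and 5676 in liver, with overlap. Rplp1 held 3237 and 3226 in brain and 4537, 4111 and 3358 in liver, without overlap. Rplp2 held 3793 and 3729 in brain and 4446, 4219 and 3562 in liver, with overlap. None of these was called: the log2 fold changes were -0.08 ± 0.14 for Rplp0, -0.43 ± 0.15 for Rplp1 and -0.23 ± 0.14 for Rplp2 (SE), with edgeR adjusted p of 0.698, 0.0775 and 0.253. Rplp1 was called in 5 of the 24 alternatives, DESeq2 and the fit without liver replicate 3 among them.

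The fusion proteins gave intermediate values. Rps27a, made as a fusion with ubiquitin, had 3697 and 3744 CPM in brain and 4577, 4258 and 3832 in liver, which is -0.30 ± 0.12 on the log2 scale (SE; adjusted p = 0.0952 in edgeR). Fau, made as a fusion with a ubiquitin-like protein, had 2545 and 2534 CPM in brain and 3059, 2881 and 2651 in liver, for -0.29 ± 0.11 (SE, adjusted p = 0.0874). Both had brain below all liver libraries. DESeq2 and the fit without liver replicate 3 called both lower.

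None of Rpl41, Rplp0, Rps19 and Rps6 was called. Rps6 had 5256 and 5608 CPM in brain and 5794, 5524 and 5032 in liver, with overlap. The log2 fold change was -0.12 ± 0.11 (SE), and its edgeR adjusted p 0.467. Rps19 and Rpl41 gave -0.19 ± 0.12 and -0.20 ± 0.17 (SE), again with overlapping libraries.

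A few members ran the other way, none past the test. Rps28 and Rps29 are named here after their values were seen. Rps28, a small protein at the mRNA exit of the small subunit, had 4892 and 3720 CPM in brain and 3049, 3567 and 2614 in liver, so both brain libraries lay above all liver libraries. Brain against liver gave a log2 value of 0.37 ± 0.24 (SE), not called by edgeR (adjusted p = 0.309). Rps27 gave 0.22 ± 0.21, Rps29 0.12 ± 0.22 and Rpl27 0.12 ± 0.19 (SE). Without brain replicate 1 Rps27 gave 0.03 and Rpl27 -0.04, and without brain replicate 2 they gave 0.41 and 0.29. In each of these 4 the highest of the 8 libraries was brain replicate 1, the library with the most macrophage marker RNA. In cells with no macrophage or microglia UMI, Rps27 gave 0.35 and Rpl27 0.24. The values of Rps28 and Rps29 in those cells are not reported here. The part of macrophage RNA in these levels was not tested.

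The difference between brain and liver varied with the length of the coding sequence. Among the 21 members with at least 600 coding bases, 15 were called lower in brain and the median log2 fold change was -0.43. Of the 48 members from 300 to under 600 bases 11 were called, with a median of -0.31. Among the 10 members under 300 bases 0 were called, at a median of -0.08 and a range of -0.24 to 0.37. Across the 79 members Spearman's correlation between coding length and log2 fold change was -0.52 in brain against liver, -0.52 in brain against subcutaneous and 0.15 in liver against subcutaneous. Both brain contrasts share the brain libraries, and members are not independent replicates, so no p is given.

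**Figure D3:**
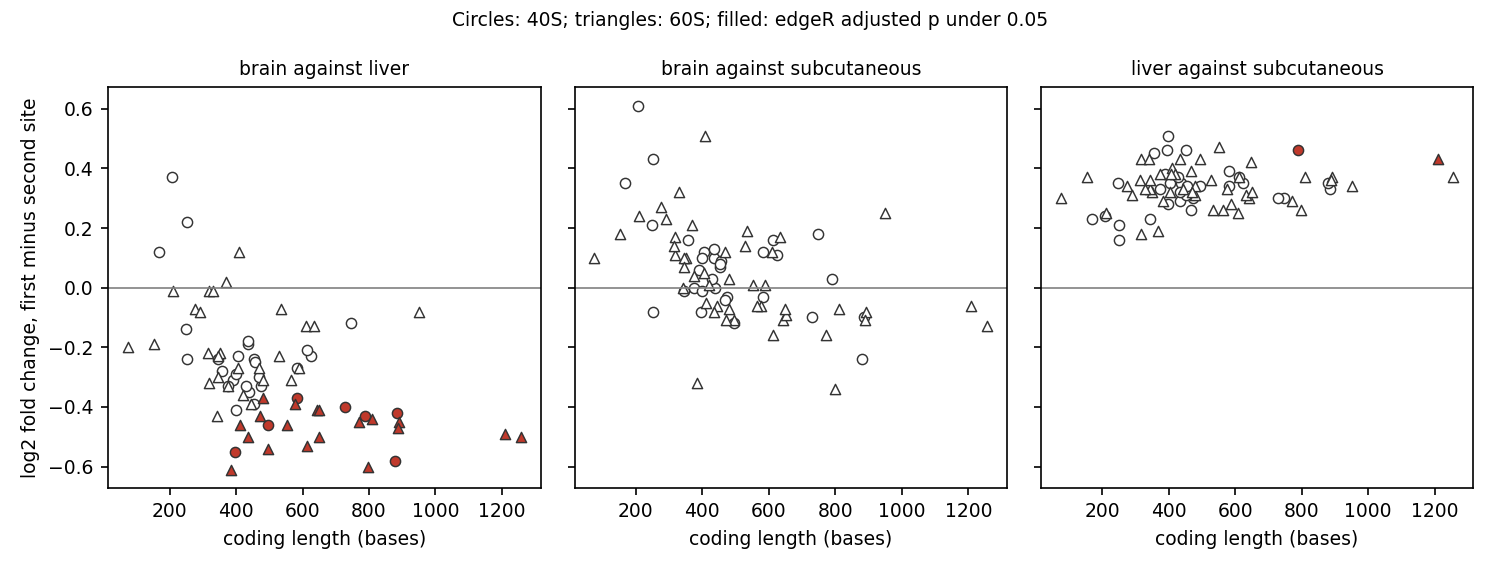
Log2 fold change of each of the 79 tested members against its coding length in bases, for the 3 pairs of sites (circles, 40S; triangles, 60S; filled, edgeR adjusted p under 0.05). In brain against liver the filled points lie at 384 bases and above, and members under 300 bases lie between -0.24 and 0.37.

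This gradient was present from library to library and not only between sites. Spearman's correlation between coding length and a library's deviation from the mean of the 8, on log2(CPM + 1), was -0.62 and -0.32 in brain. It was 0.38, -0.24 and 0.67 in liver. In subcutaneous grafts it was -0.76 in replicate 1 and 0.70 and 0.69 in replicates 2 and 3. Libraries of 1 site therefore stood at both ends: members under 300 bases took 3.33% of the UMIs in subcutaneous replicate 1 and 2.37% in each of the other 2, while members of 600 bases and over took 6.999%, 6.86% and 6.81%. In the brain the short members took 3.49% and 3.01%, and in liver 3.07%, 3.38% and 2.65%.

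Other strongly expressed genes shared part of it. For 674 other genes with a mean of at least 200 CPM, the correlation with coding length was -0.10 and -0.03 in brain, -0.37, -0.26 and 0.41 in liver, and -0.40, 0.44 and 0.43 in subcutaneous grafts. The sign was the same as in the members in 7 of the 8 libraries, liver replicate 1 being the exception, but the fold changes of these genes had a correlation of -0.01 in brain against liver, -0.16 in brain against subcutaneous and -0.31 in liver against subcutaneous. Over all 13804 other genes the library values lay between -0.08 and 0.11. What sets the gradient was not tested.

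**Figure D4:**
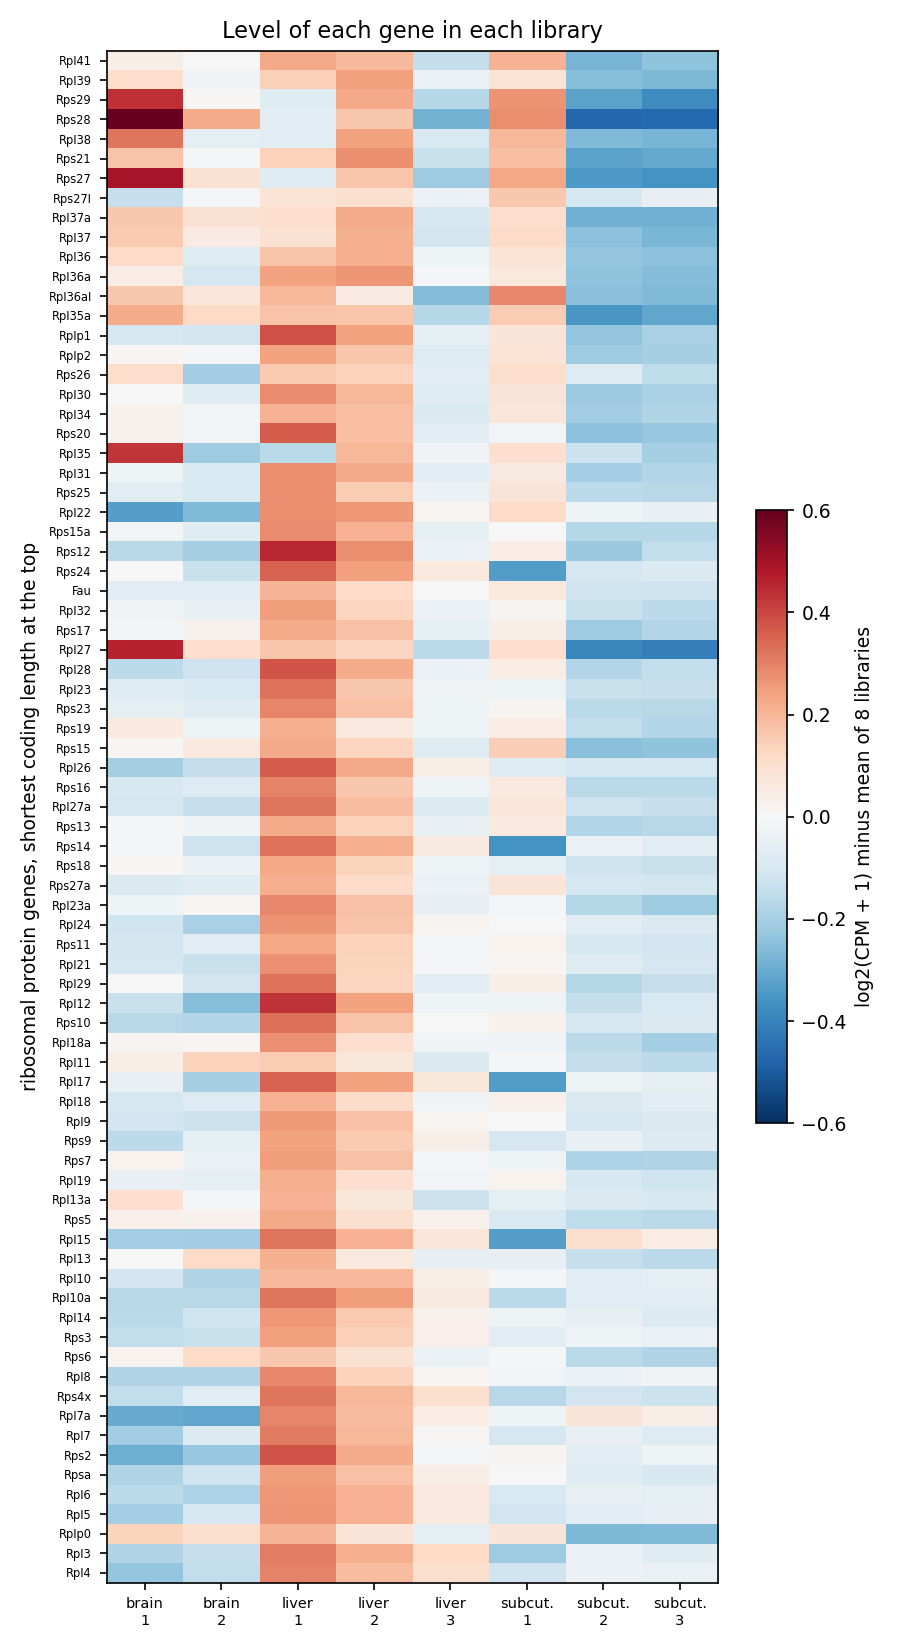
Level of 78 tested members (rows, shortest coding length at the top) in each of the 8 libraries, as log2(CPM + 1) minus the mean of the 8 libraries. Liver replicates 1 and 2 are above the mean in 74 and 79 of all 79 tested members, subcutaneous replicates 2 and 3 below it in 77 each, and brain replicate 1 and subcutaneous replicate 1 are high in the short members at the top.

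No member passed the test between brain and subcutaneous tumours. edgeR called 0 members in either direction, beside 8.94% of all genes higher and 6.13% lower in brain. At an unadjusted p under 0.05, 4 members were counted, 2 in each direction, beside 31.4% of all genes. DESeq2 called 4, Rpl27 and Rps28 higher and Rpl7a and Rpl22 lower, beside 19.3% of all genes. The median member had a log2 fold change of 0.03, with a range of -0.34 to 0.61.

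The ends of that range belonged to the members already described. Rps28 had 4892 and 3720 CPM in brain and 3865, 2296 and 2301 in subcutaneous grafts (log2 fold change 0.61 ± 0.24 SE, edgeR adjusted p = 0.122), where subcutaneous replicate 1 lay between the brain libraries. Rpl27 had 1239 and 966 CPM in brain and 963, 685 and 678 in subcutaneous grafts (0.51 ± 0.18 SE, adjusted p = 0.0969). Rpl7a and Rpl22 were lower in brain by their values, at -0.34 ± 0.11 and -0.32 ± 0.12 (SE, adjusted p = 0.0619 and 0.0991), with both brain libraries below all 3 subcutaneous ones. Leaving out subcutaneous replicate 1 raised the count to 9 members (beside 19.3% of all genes higher and 15.0% lower), 8 higher in brain, among them Rps27, Rps28, Rps29 and Rplp0, and 1 lower, Rpl7a.

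Liver tumours had higher values than subcutaneous tumours across the whole set, though few passed the test. All 79 log2 fold changes were positive, from 0.16 to 0.51 with a median of 0.34 (a ratio of 1.26), and that of all genes was -0.01. edgeR called 2 members higher and 0 lower, beside 0.933% and 1.9% of all genes, and 68 members were higher at an unadjusted p under 0.05, beside 7.92% of all genes. DESeq2 called 52 higher, beside 3.18% of all genes. All 3 liver libraries lay above all 3 subcutaneous libraries for 25 members, an order met by 5.99% of all genes.

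The pair called in edgeR was Rps4x and Rpl3. Rps4x (chromosome X, 102184941 to 102189394, minus strand), an X-linked gene of the small subunit, held 4268, 3930 and 3657 CPM in liver. Its subcutaneous levels were 3047, 3157 and 3129 CPM, all below liver, and brain stood at 3087 and 3271 CPM. The log2 fold change of liver against subcutaneous was 0.46 ± 0.092 (SE, edgeR adjusted p = 0.0369).

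Rpl3 (chromosome 15, 80077791 to 80091868, minus strand), which reaches into the peptidyl transferase centre, held 4051, 3813 and 3556 CPM in liver and 2828, 3198 and 3116 in subcutaneous grafts. Here too no library overlapped. Liver exceeded subcutaneous by 0.43 ± 0.094 on the log2 scale (SE; adjusted p = 0.0462 in edgeR), and both members were also called lower in brain than in liver, at -0.43 ± 0.10 for Rps4x and -0.49 ± 0.11 for Rpl3 (SE, adjusted p = 0.0194 and 0.0125). These contrasts share the liver libraries.

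The count depended on single libraries, while the values of Rps4x and Rpl3 stayed at 0.40 to 0.53 and 0.38 to 0.50 as each library was left out. It was 31 without liver replicate 3 (beside 0.948% of all genes higher) and 22 without subcutaneous replicate 1 (beside 2.97%), and 0 without any one of the other 6 libraries. It was also 0 when only the 2 sites compared entered the fit (beside 0.806%), and 20 in cells thinned to 3000 UMIs (beside 1.36%). With library totals alone, the median of all genes moved down by 0.12 and the median member to 0.22. There 1 member was called, beside 0.804% of all genes higher. The members' median stayed between 0.22 and 0.43 over all alternatives run.

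Subcutaneous replicate 1 had a pattern of its own among the members. Rpl15, Rps24, Rpl17 and Rps14, chosen after their values were seen, stood at 2369, 2649, 2494 and 2476 CPM there. In subcutaneous replicates 2 and 3 the same genes had 3175 and 3067, 3124 and 3147, 3080 and 3020, and 3094 and 3039 CPM. For all 4 it was the lowest of the 8 libraries, while the short members Rps28, Rps29 and Rpl41 were higher there than in the other 2 subcutaneous libraries, at 3865, 4451 and 7143 CPM.

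Ribosomal components with other symbols did not all follow. Rps3a1, the small-subunit protein whose symbol falls outside the rule, had 2823 and 2465 CPM in brain, 2409, 2315 and 1996 in liver and 2159, 1671 and 1751 in subcutaneous grafts. It was called higher in brain than in subcutaneous grafts (log2 fold change 0.51 ± 0.14 SE, edgeR adjusted p = 0.0424) and gave 0.12 ± 0.14 SE against liver. Rack1, a scaffold on the small subunit, had 1189 and 1197 CPM in brain and 1719, 1556 and 1430 in liver and was called lower in brain (-0.51 ± 0.11 SE, adjusted p = 0.0134).

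Rpl22l1, the paralog that Rpl22 is known to repress, had higher values in brain, where Rpl22 had lower ones. In liver against subcutaneous both log2 fold changes were positive and uncalled, at 0.16 ± 0.098 for Rpl22l1 and 0.29 ± 0.10 for Rpl22 (SE). No contrast called both genes, and a link between them was not tested. Rpl22l1 held 881.9 and 954.3 CPM in brain, 723.5, 623.0 and 660.5 in liver and 588.9, 689.8 and 659.1 in subcutaneous grafts, with both brain libraries above the 6 others. It was called higher in brain than in subcutaneous grafts (log2 fold change 0.51 ± 0.11 SE, edgeR adjusted p = 0.0189) and gave 0.34 ± 0.11 SE against liver (adjusted p = 0.0526). Rows marked -ps, copies that share sequence with members, numbered 9 and summed to 608.6 to 789.2 CPM. Rpl7a-ps5, at 11.4 to 32.4 CPM, had a log2 fold change of -1.13 ± 0.21 SE in brain against liver (adjusted p = 0.00741), and reads that Rpl7a shares with such copies cannot be told apart.

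The other genes of translation were read from lists. The elongation factors and ribosome partners, whose mRNAs also belong to the TOP class, moved the same way: of 14 tested, 9 were called lower in brain than in liver and 0 higher, with a median log2 fold change of -0.39, beside 8.56% and 13.2% of all genes. Eef1a1, which delivers aminoacyl-tRNA, had 6416 and 6257 CPM in brain, 9104, 8564 and 7731 in liver and 5971, 6767 and 6661 in subcutaneous grafts. It was lower in brain than in liver (-0.53 ± 0.11 SE, edgeR adjusted p = 0.0119) and higher in liver than in subcutaneous grafts (0.50 ± 0.10 SE, adjusted p = 0.0362). Eef1g, a subunit of its exchange factor, had 826.1 and 885.5 CPM in brain and 1354, 1332 and 1183 in liver (-0.71 ± 0.13 SE, adjusted p = 0.00643). Tpt1, a TOP mRNA for a growth-related protein, was called higher in brain than in subcutaneous grafts (0.55 ± 0.14 SE, adjusted p = 0.0287).

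**Figure D5:**
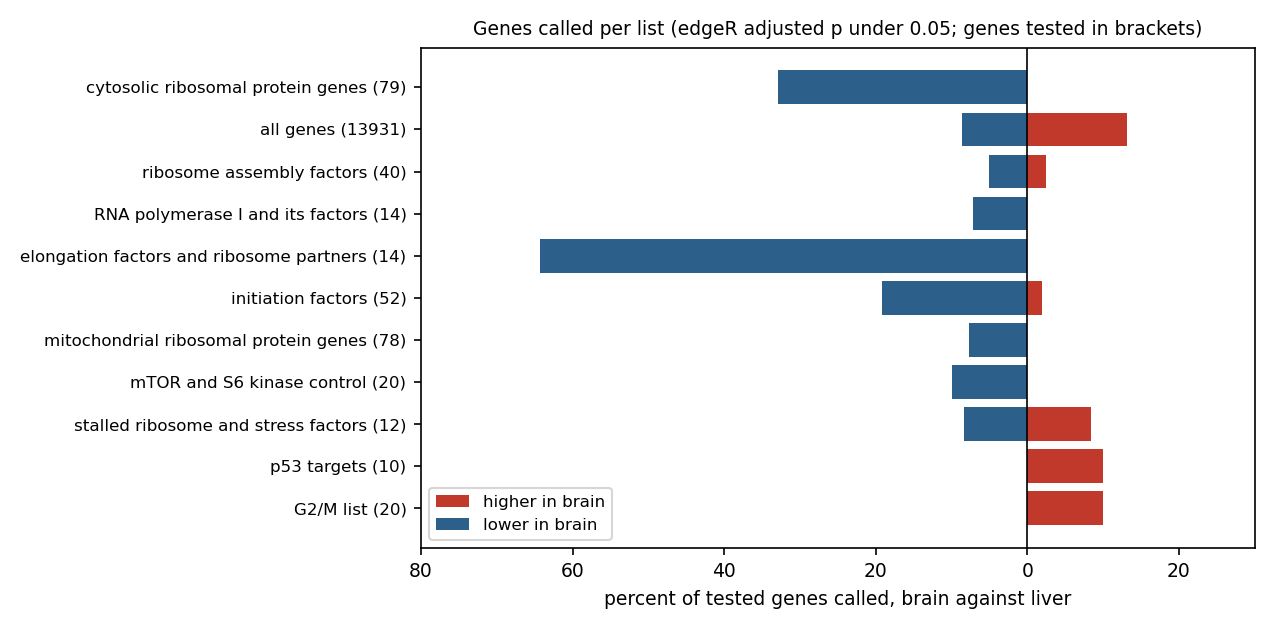
Percent of tested genes in each list called higher (right) or lower (left) in brain against liver by edgeR. Elongation factors and ribosome partners have the highest share called lower, 9 of 14, followed by the cytosolic ribosomal protein genes, 26 of 79, with 8.56% of all genes called lower.

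Initiation factors gave 10 of 52 lower and 1 higher in brain against liver, with a median of -0.17. Of all genes, 8.56% were called lower and 13.2% higher. Eif4b, also in the list before, and Eif3f were the lower ones with the largest change (-0.51 ± 0.11 and -0.42 ± 0.10 SE, edgeR adjusted p = 0.0125 and 0.0188), and Eif2ak2, a kinase that halts initiation on double-stranded RNA, was the higher one at 0.62 ± 0.14 SE (adjusted p = 0.0141). Of 40 assembly factors 2 were called lower, Bysl and Nhp2, and 1 higher, Ebna1bp2, and the median of the list was -0.24. Of 14 RNA polymerase I genes, with a median of -0.03, 1 was lower, Polr1d (-0.47 ± 0.097 SE, adjusted p = 0.0104). Neither the assembly nor the polymerase list exceeded the share of all genes in either direction.

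Mitochondrial ribosomal protein genes, which serve the other ribosome of the cell, had 6 of 78 called lower in brain than in liver and 0 higher, near the 8.56% of all genes, with a median of -0.13. Mrpl20 was the lowest called, with 231.5 and 226.6 CPM in brain and 307.6, 312.2 and 299.3 in liver (-0.53 ± 0.12 SE, edgeR adjusted p = 0.0132). In brain against subcutaneous this list gave 2 higher and 1 lower, beside 8.94% and 6.13% of all genes. In liver against subcutaneous it gave 0 in either direction, beside 0.933% of all genes higher and 1.9% lower.

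A few regulators of translation were called between brain and subcutaneous grafts, where 6.13% of all genes were lower and 8.94% higher in brain. Of the list of mTOR and S6 kinase control 3 of 20 were lower and 0 higher, and the other 17 did not pass. Of the stalled ribosome and stress factors 3 of 12 were lower and 1 higher, and the other 8 did not pass. Sesn2 and Ddit4, both inhibitors of mTORC1, were lower in brain than in subcutaneous grafts (log2 fold changes -1.65 ± 0.33 and -1.03 ± 0.16 SE, edgeR adjusted p = 0.014 and 0.00596). Sesn2 had 8.21 and 5.89 CPM in brain, 7.71, 4.14 and 8.20 in liver and 15.5, 25.6 and 24.7 in subcutaneous grafts. The stress factor Ddit3 had 31.2 and 24.1 CPM in brain, 32.4, 28.4 and 34.2 in liver and 52.1, 85.8 and 78.5 in subcutaneous grafts, and was called lower in both brain (-1.39 ± 0.21 SE, adjusted p = 0.00573) and liver (-1.08 ± 0.18 SE, adjusted p = 0.0238). In each of these genes subcutaneous replicate 1 was the subcutaneous library nearest to the other sites.

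In brain against liver the list of mTOR and S6 kinase control gave 2 of 20 lower and 0 higher, near the 8.56% of all genes lower. They were Rps6ka1, an S6 kinase, with 39.1 and 38.9 CPM in brain and 65.5, 68.2 and 74.3 in liver (-0.94 ± 0.19 SE, edgeR adjusted p = 0.00899), and Eef2k, the kinase of elongation factor 2 (-0.50 ± 0.11 SE, adjusted p = 0.0147). Stalled ribosome and integrated stress factors gave 1 of 12 in each direction, Eif2ak2 higher and Map3k20, a sensor of collided ribosomes, lower. Of 10 p53 targets 1 was higher, Sesn1. Of 20 G2/M genes 2 were higher in brain than in liver, and both shares lie below the 13.2% of all genes called higher. The G2/M genes called were Cdc20 (0.76 ± 0.17 SE, adjusted p = 0.0136) and Top2a (0.49 ± 0.15 SE, adjusted p = 0.0448).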

How the data were processed

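Droplet 3' RNA sequencing measured 8 libraries of N2N1G allografts. The authors deposited whole UMI counts per gene and cell. The submitters' processing notes name Cell Ranger, STAR and mm10, with no role for each, and the matrix headers give software version 3.0.0 per the file headers. The lowest deposited cell had 501 UMIs. Doublets were not removed.

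Sites came from the labels. UMIs of tumour cells were summed per library and tested in R 4.3.3 with edgeR 4.0.16 (TMM, filterByExpr, robust quasi-likelihood F tests, 1 model with a mean per site, with 5 residual degrees of freedom and a biological variation of 17.9%). Genes not tested held 0.0133% of the UMIs. CPM are summed UMIs over the library total. Log2 fold changes also use the TMM factors, 1.04 and 1.03 in brain and 0.937, 0.942 and 0.977 in liver, so they can differ from ratios of CPM. For Rpl11 the mean CPM was 4332 in brain and 4201 in liver, beside a log2 fold change of -0.07. Standard errors (SE) are the absolute log2 fold change divided by the square root of F. p-values were adjusted by Benjamini-Hochberg over all tested genes. The labels do not say that grafts came from separate animals, so p-values measure the spread between these libraries. The test was checked on simulated data with changes placed in brain. It recovered 25% of 1.5-fold changes against liver and 28% against subcutaneous, and 77% and 76% of 2-fold changes. False calls were 5.56% and 7.14% of the calls. Members with small changes can therefore go uncalled.

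Named members were the 6 with the largest called change per contrast and direction, the 5 highest and 5 lowest tested levels, listed paralogs, stalk and fusion proteins, Rpsa, Rps6, Rpl5 and Rpl11, and of each other list at most 2 called genes per contrast and direction. Members and lists were chosen with earlier results of these data known. Gene positions are GENCODE M21, 1-based; promoters are RefSeq. Alternatives covered DESeq2 1.42.0, scaling, filters, cell classes, thinning, the replicate number and each library left out. Depth ranged over 21689091 to 62047017 UMIs per library, so that the spread between libraries, not counting, limits the members. Malat1 and Neat1 were not analysed here, and some genes that the naming rule takes are not reported here. Python 3.11.15 was used.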

Additional observations from a re-analysis of the deposited data

How the results depend on the processing

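The count of members called lower in brain than in liver, 26, stayed at 22 to 39 under 16 of 24 alternatives. Under those 16, 5.79% to 13.8% of all genes were called lower. It was 17 with library totals alone, beside 5.14% of all genes lower. It was 16 (beside 7.45%) in cells with no macrophage or microglia UMI, of which brain replicate 1 kept 432 of 2418 tumour cells. With the replicate number as a block it was 44 (beside 7.36%). It was 8 to 49 as each liver or subcutaneous library was left out, beside 4.27% to 13.8% of all genes. In brain against subcutaneous the count of 0 became 1 with library totals alone and 1 at a tumour cell threshold of 0.4%. It was also 1 in non-cycling cells and 1 with the replicate block. It was 2 with eGFP alone at 0.2% (an alternative chosen after seeing the data) and 4 in DESeq2. As each liver or subcutaneous library was left out it was 0 to 9. Under these settings 3.35% to 19.3% of all genes were called higher in brain and 1.4% to 15.0% lower. In liver against subcutaneous the count of 2 became 5 with relative log expression factors (beside 1.03% of all genes higher) and 1 with library totals alone (0.804%). It was 52 in DESeq2 (3.18%), 20 in thinned cells (1.36%) and 1 in non-cycling cells (0.833%). It was 7 in cells with no macrophage or microglia UMI (1.06%) and 1 with eGFP alone (0.822%). Cycling cells, also chosen after seeing the data, gave 13 (0.878%). It was 0 with only the sites compared (0.806%) and 0 with the replicate block (0.481%). As each liver or subcutaneous library was left out it was 0 to 31, beside 0.0577% to 2.97%. The cause of these changes was not tested.

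The labels state no pairing of libraries by replicate number. The correlation of deviations from the site means was 0.02, 0.09 and 0.19 among libraries numbered 1, -0.01, 0.07 and -0.13 among those numbered 2, and 0.25 between those numbered 3. With 2 brain libraries the deviations of one mirror those of the other, so these values cannot settle whether the numbers pair libraries. Of 672 values of the 28 named members in brain against liver, 608 kept direction and call, 36 lost the call, 14 gained it and 14 turned sign, all 14 in members that were not called. Rpl11 (-0.07) became 0.04 with library totals alone, 0.07 with no macrophage or microglia UMI, 0.07 with eGFP alone and -0.15 to 0.0006 over left-out libraries. Rpl36al (-0.01) became 0.11 with library totals alone, 0.05 in non-cycling cells, 0.05 with no macrophage or microglia UMI and -0.14 to 0.10 over left-out libraries. Rplp0 became 0.03 with library totals alone, Rps6 became 0.03 with no macrophage or microglia UMI, and Rpl27 ranged from -0.04 to 0.29 over left-out libraries. Of 48 values of Rps4x and Rpl3 in liver against subcutaneous, 28 kept the call and 20 lost it with the same direction. Differences of the summed share moved by less than the spread between libraries under each setting run. With 2 and 3 libraries per site, the spread between libraries limits these tests more than depth does.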

Other observations

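Kept cells outside the tumour rule also held many member UMIs. Cells with at least 5 macrophage marker UMIs numbered 834 in brain replicate 1 and 260 in brain replicate 2, with a median member share of 19.8% and 18.8% at a median of 4252 and 3936 UMIs. In subcutaneous replicate 1 there were 125 such cells with a median of 19.2%. These values lay below those of the tumour cells of the same libraries, 23.2%, 22.4% and 23.6%.

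The remaining cells below the rule, without that macrophage signal, differed between libraries. Their median member share was 14.5% and 11.1% in the brain libraries (124 and 91 cells) and 23.5% in subcutaneous replicate 1 (148 cells). It was 45.9%, 42.3% and 42.6% in the liver libraries (50, 119 and 79 cells), and 39.3% and 38.8% in subcutaneous replicates 2 and 3 (129 and 49 cells), at medians of 3664 to 5013 UMIs.

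A small set of cells devoted at least 40% of their UMIs to the members. They made up 1.60% and 0.476% of kept cells in brain, 2.04%, 3.95% and 2.43% in liver and 1.31%, 1.80% and 0.764% in subcutaneous grafts. They were shallow, with medians of 3769 to 5243 UMIs and 930 to 1290 genes, against 2838 to 3299 genes in the median tumour cell. An eGFP UMI was seen in 89.7% to 100% of them, and 14 to 102 of them per library met the tumour rule.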
